A study of Rattus norvegicus with 8 samples.

Results

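CCL7 and RSAD2 are a pair of innate immune response genes, described here in cells of rat pituitary tumours treated with dopamine agonists. They were chosen by the fold of the MMQ array with cabergoline (CAB) over the MMQ control array, and they are 2 of the 20 genes that could be identified here among 28295 probe sets. The study compared 2 rat lines, GH3 cells, which secrete prolactin and growth hormone, and MMQ cells, which secrete prolactin. Each line was profiled untreated (control) and after bromocriptine (BRC), CAB or both drugs (CAB+BRC), on 1 microarray per condition and 8 in all, so no condition has a replicate. A p-value is given only where a fit takes its spread from how far CAB+BRC arrays lay from the summed drug effects. In part these are the tested arrays themselves. The single-drug arrays were labelled with a dose of 50 μM. The treatment lasted 48 h for MMQ cells with CAB and GH3 cells with BRC, and no time was found for the other treated arrays, nor the dose of each drug in CAB+BRC. Effects and sums that use CAB+BRC therefore assume that it combined the single-drug treatments unchanged. All cells were cultured in medium with horse and foetal calf serum, the labels give GH3 and MMQ cells a different base medium, and the drugs were dissolved in DMSO (final concentration 0.2%). Whether the control cells received DMSO was not found. The values are the deposited intensities, on a linear scale, and the array medians lay between 45.9 and 49.9.

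CCL7 encodes a secreted CC chemokine that attracts monocytes and other leukocytes through chemokine receptors, among them CCR2, and inflammatory signals that act through NF-κB are known to induce such chemokines. RSAD2, also called viperin, encodes a radical SAM enzyme of the endoplasmic reticulum and of lipid droplets that restricts viruses and is a classic target of interferons. Interferon-stimulated genes are commonly switched on through the interferon-stimulated response element (ISRE) in their promoters. Both genes are usually low in resting cells that are not of the immune system.

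The names in the deposited table did not go with its values, so the gene was found by its fold instead. Rows listed under one gene name should vary alike, and over 2778 pairs of such rows the median of their correlations was 0.01. For CCL7, exactly 1 probe set had the fold that the study lists for the gene within a relative tolerance of 1e-06 (relative difference 5.47e-08), and the next nearest probe set differed by 7.6e-05. For RSAD2 the match differed by 3.32e-08 and the next nearest probe set by 0.189. The rows that carry the names of these genes held other values. The row named for CCL7 lay between 12.2 and 17.3, and the row named for RSAD2 between 242 and 597. The identity of both genes therefore rests on the lists of the study. Other members of their pathways, cell type markers and the prolactin gene could not be read from this table, and the labelled cell type was not checked. CCL2, a further chemokine of the list, matched no probe set and was not analysed here. The study lists a larger fold for CCL2 than for RSAD2 in the same pair of arrays. Places among all probe sets are therefore places within the deposited table, which lacks that value.

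That both genes were higher in the MMQ CAB than in the MMQ control array follows from their choice. Their promoter sequences are shown because the 2 genes belong to different branches of innate immunity. Both sequences were taken from RefSeq (build GRCr8), 5′ to 3′ on the strand of the gene, as the bases of the promoter window that precede every annotated base of the gene. Ccl7 lies on the plus strand at chr10:67514095-67515945, and the 250 bases before it are at chr10:67513845-67514094. Rsad2 lies on the minus strand at chr6:48774985-48788245, and the 125 bases before it are at chr6:48788246-48788370. Capitals mark matches to the motifs named after the sequences.
Ccl7: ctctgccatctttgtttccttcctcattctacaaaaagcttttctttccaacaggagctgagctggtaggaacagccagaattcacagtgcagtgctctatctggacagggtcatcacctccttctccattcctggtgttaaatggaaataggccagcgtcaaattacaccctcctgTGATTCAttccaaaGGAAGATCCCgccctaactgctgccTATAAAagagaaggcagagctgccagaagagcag
Rsad2: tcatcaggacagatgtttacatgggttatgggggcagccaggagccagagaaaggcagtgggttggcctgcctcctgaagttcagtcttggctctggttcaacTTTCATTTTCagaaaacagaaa

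Both strands of the windows, from 250 bases before to 50 bases after the listed start, were searched for 5 motifs. The listed start is the first annotated base for Ccl7. For Rsad2 it is chr6:48788120, inside the annotated gene, so distances before the start are not alike for the 2 genes. The Rsad2 window held 1 match to the ISRE core (GAAA, any 2 bases, GAAA) on the reverse strand, 147 bases before the listed start, where the capitals read as its reverse complement. Among 33469 rat promoter windows of the same length 3.92% held this motif, and the Ccl7 window did not. The Ccl7 window held 1 match to the NF-κB consensus on the reverse strand 59 bases before the start, against 7.51% of all windows. It also held a match to the AP-1 motif TGANTCA, which reads the same on both strands, 73 bases before the start (7.33% of all windows) and a TATAAA 34 bases before it (14.2%). The GAS motif TTCNNNGAA, which also reads the same on both strands, was found in the Ccl7 window after the start (8.87% of all windows). The Rsad2 window had no match to the NF-κB, AP-1 or GAS motif. Its TATAAA lay on the reverse strand, 44 bases before the start, within the annotated gene and so outside the printed stretch. These matches describe letters in a window, and no binding was measured.

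CCL7 was dim in GH3 cells, with an intensity of 16.7 in the control, 14.1 with CAB+BRC and 19.0 with either drug alone. In MMQ cells it was 33.3 without drug, 44.5 with BRC, 205 with CAB and 437 with both drugs. The MMQ arrays with CAB thus stood above all the others, by at least 4.60 times, and the 4 GH3 arrays were the lowest. In its place within each array, CCL7 was brighter than 21.4% to 29.5% of all probe sets in GH3 cells, 42.2% in the MMQ control, 49.2% in MMQ cells with BRC, 77.4% with CAB and 87.8% with both drugs. It lay below the array median in the 6 arrays other than those of MMQ cells with CAB. The arrays measured RNA of whole cultures, so more transcript per cell and more cells with the transcript cannot be told apart.

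In GH3 cells RSAD2 was at 29.6 without drug, 33.7 with CAB, 39.6 with BRC and 30.9 with CAB+BRC. In MMQ cells it was at 18.0 without drug, 20.8 with BRC, 235 with CAB and 159 with both drugs. Again the MMQ arrays with CAB were the highest of the 8, but here the MMQ control and the MMQ BRC array were the lowest and the GH3 arrays lay between. RSAD2 was brighter than 27.0% of all probe sets in the MMQ control and 32.3% with BRC, against 79.9% with CAB and 71.9% with CAB+BRC. In the 6 arrays without CAB in MMQ cells it stayed below the array median, with a range of 18.0 to 39.6. No detection calls were used, so whether either gene was above background in these 6 arrays is not known, and folds against dim values depend on that background.

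**Figure D1:**
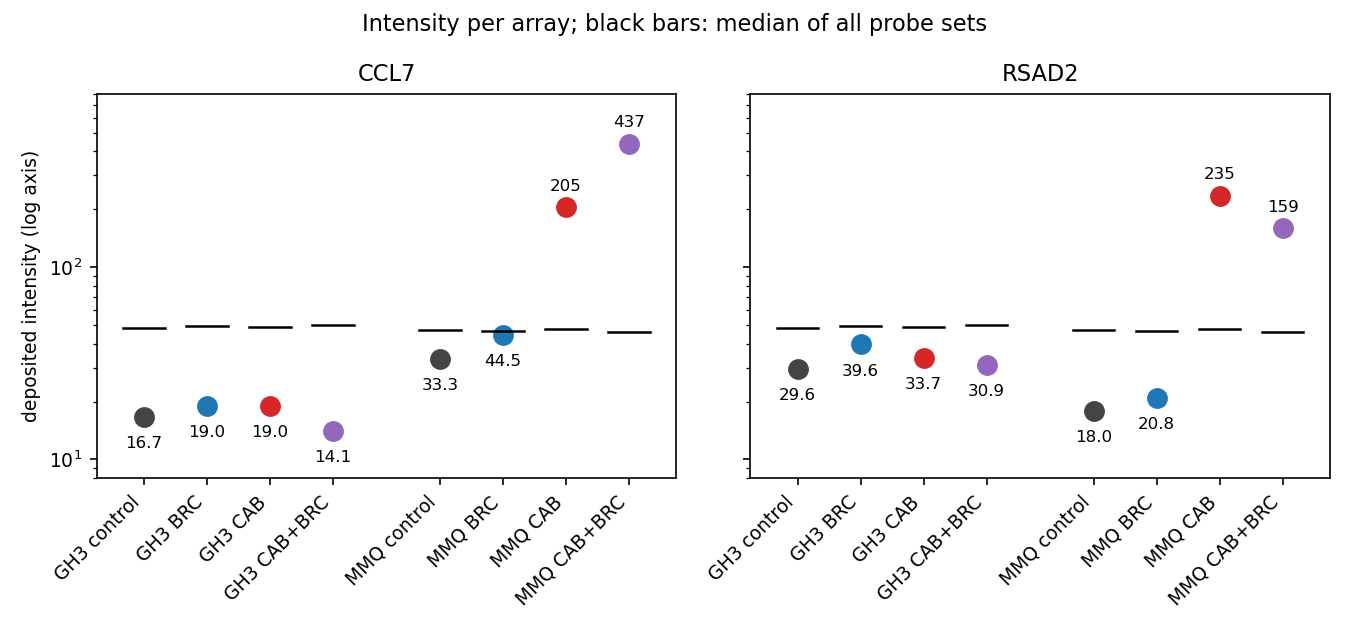
Intensity (log axis) of CCL7 and RSAD2 in the 8 arrays, 1 point per array, with the median of all probe sets of each array as a black bar. For both genes the MMQ CAB and MMQ CAB+BRC points lie above the bar (205 and 437 for CCL7, 235 and 159 for RSAD2) and all other points below it.

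Differences between arrays were taken on the scale of log2 of the intensity plus 1. Between the MMQ CAB and MMQ control arrays, the pair that chose the genes, the log2 difference was 2.58 for CCL7 and 3.64 for RSAD2. On that pair 1.08% of all probe sets were at least 2-fold higher with CAB and 1.37% lower, and RSAD2 had the largest difference of all 28295, with CCL7 in place 12. These values follow from the choice and support nothing further. With pseudocounts up to 32 or another scaling the place of RSAD2 lay between 1 and 7.

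The effect of CAB was next measured with BRC present, between the MMQ CAB+BRC and MMQ BRC arrays, which share no array with the pair that chose the genes. The log2 difference was 3.27 for CCL7 and 2.87 for RSAD2, at least 2-fold for both, where 0.869% of all probe sets were at least 2-fold higher and 1.09% lower. CCL7 had the third largest difference of all probe sets, also under the 5 alternative scalings and pseudocounts, and RSAD2 the fifth, with a place of 5 to 28 under those alternatives. This pair was tested with limma in a fit of 6 arrays, the 4 GH3 arrays and these 2 MMQ arrays. The only residual degree of freedom was how far the GH3 array with both drugs lay from their summed effects, so MMQ cells were assumed to vary like GH3 cells. That departure was -0.57 for CCL7 and -0.53 for RSAD2, and 13.4% and 16.1% of all probe sets were at least as far from 0. The effect was 3.27 for CCL7 (95% interval 2.59 to 3.95) and 2.87 for RSAD2 (95% interval 2.22 to 3.53). After Benjamini-Hochberg adjustment over all probe sets neither passed (adjusted p = 0.196 for both in limma), and 0 probe sets did (0%), with 994 higher and 826 lower at an unadjusted p under 0.05. With a prior spread that follows the mean level of a probe set, both genes passed (adjusted p = 0.0264 for CCL7 and 0.0309 for RSAD2 in limma). With pseudocounts of 16 and 32, quantile normalization and centring neither passed, and over all 5 of these alternatives their adjusted p ran from 0.0264 to 0.704 for CCL7 and from 0.0309 to 0.704 for RSAD2 in limma. A filter on dim probe sets bears on neither gene, since both exceed the array median in this fit through the MMQ CAB+BRC array alone.

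**Figure D2:**
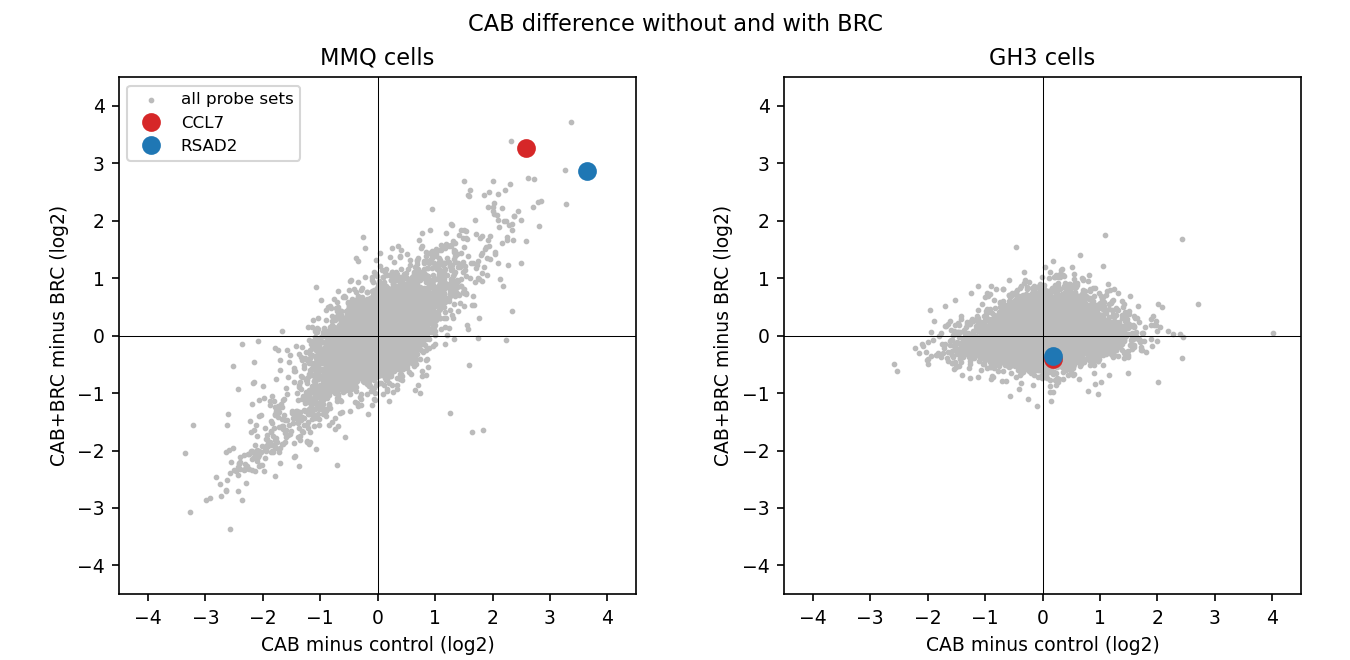
Log2 difference of CAB against control (horizontal) and of CAB+BRC against BRC (vertical) in MMQ cells (left) and GH3 cells (right), with all 28295 probe sets in grey. CCL7 (red) and RSAD2 (blue) lie at the upper right end in MMQ cells, at 2.58 and 3.27 for CCL7, and close to the origin in GH3 cells, where RSAD2 overlaps CCL7.

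In GH3 cells neither gene was 2-fold apart in any pair of conditions. CCL7 differed from the GH3 control by a log2 difference of 0.17 with CAB, 0.17 with BRC and -0.23 with CAB+BRC. For RSAD2 these were 0.18, 0.41 and 0.06, all smaller than a 2-fold difference. Of all probe sets, 1.27% were at least 2-fold higher and 1.16% lower with CAB, 0.951% and 0.852% with BRC, and 0.873% and 0.785% with both drugs. Against BRC, the CAB+BRC array differed by -0.40 for CCL7 and -0.35 for RSAD2, where 0.0884% of all probe sets were at least 2-fold higher and 0.0177% lower. Against CAB, it differed by -0.40 and -0.12, where these shares were 0.0389% and 0.124%. With both drugs CCL7 was thus at its lowest GH3 level and RSAD2 close to its lowest, that of the control, and the highest to lowest ratio over the 4 arrays was 1.34 for each gene. Between the CAB and BRC arrays CCL7 did not differ to 2 decimals and RSAD2 differed by -0.23, against shares of 0.449% and 0.0813%. In the limma fit to all 8 arrays, with a CAB and a BRC effect in each line, the CAB effect in GH3 cells was -0.11 for CCL7 (95% interval -0.61 to 0.38, adjusted p = 0.905) and -0.08 for RSAD2 (95% interval -0.59 to 0.43, adjusted p = 0.943). The BRC effect in GH3 cells was -0.12 for CCL7 (95% interval -0.61 to 0.38, adjusted p = 0.882 in limma) and 0.14 for RSAD2 (95% interval -0.36 to 0.65, adjusted p = 0.846 in limma). Over all probe sets 0 passed for either drug (0%). At an unadjusted p under 0.05 limma had 1234 higher and 1225 lower for CAB, and 1301 and 1528 for BRC. The 4 intervals span 0 and end short of a log2 effect of 1 in either direction. The fit to all 8 arrays has 2 residual degrees of freedom, 1 of which is the departure from additivity in MMQ cells and so contains the arrays that chose the genes. Without the MMQ control array, which leaves the GH3 departure alone, the CAB effects were the same, with intervals of -0.59 to 0.37 for CCL7 and -0.54 to 0.38 for RSAD2. The BRC effects were the same too, with intervals of -0.59 to 0.36 and -0.32 to 0.61.

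**Figure D3:**
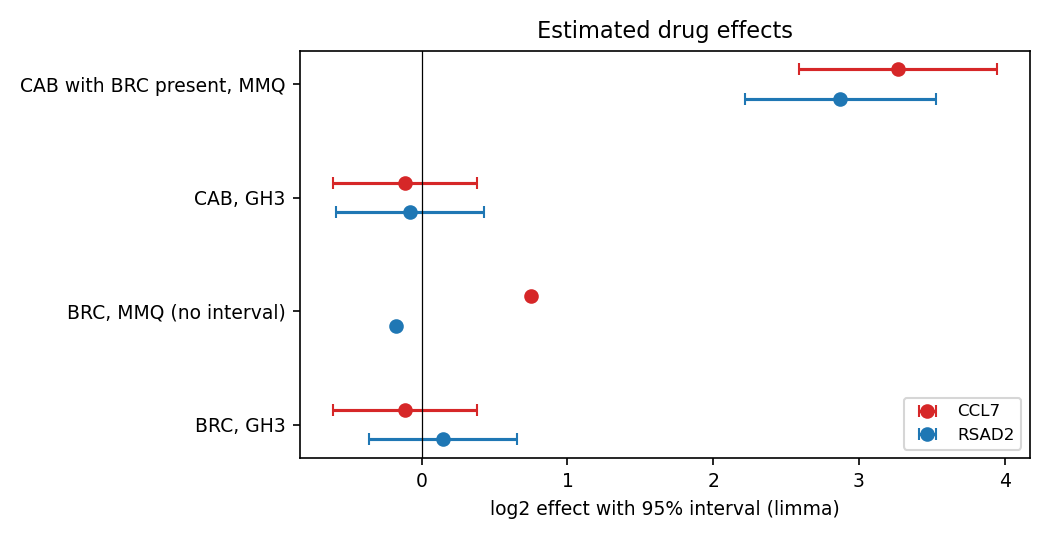
Drug effects on CCL7 (red) and RSAD2 (blue) on the log2 scale from limma, for CAB with BRC present in MMQ cells (6 arrays) and for CAB in GH3 cells, BRC in MMQ cells and BRC in GH3 cells (8 arrays). Bars are 95% intervals, and BRC in MMQ cells has none because both its effect and its spread contain the arrays that chose the genes. The spread of the GH3 intervals contains them too, through the departure from additivity in MMQ cells. The intervals for CAB in MMQ cells start at 2.59 and 2.22, and the 4 intervals of GH3 cells span 0.

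The difference in the CAB effect between the lines was tested in the fit of 6 arrays, as MMQ cells with BRC present minus GH3 cells. It was 3.38 for CCL7 (95% interval 2.55 to 4.21) and 2.95 for RSAD2 (95% interval 2.15 to 3.76). With an adjusted p of 0.389 for both in limma, neither passed over all probe sets, of which 0 did (0%), with 744 higher and 666 lower at an unadjusted p under 0.05. Under the same 5 alternatives 0 gave an adjusted p under 0.05 for either gene, and the lowest were 0.0764 for CCL7 and 0.0992 for RSAD2 in limma. Between the control arrays of the lines the genes stood in opposite order. CCL7 was higher in the MMQ than in the GH3 control (log2 difference 0.95) and RSAD2 lower (-0.69), neither of them 2-fold, where 6.39% of all probe sets were at least 2-fold higher and 8.76% lower in MMQ cells. With BRC the order was the same, with MMQ minus GH3 at 1.19 for CCL7 and -0.90 for RSAD2, and 8.27% of all probe sets at least 2-fold higher and 8.59% lower. With CAB both genes were higher in MMQ cells, by 3.36 for CCL7 and 2.76 for RSAD2 (7.75% higher, 10% lower over all probe sets). With CAB+BRC the differences were 4.86 and 2.32 (8.82% higher, 9.19% lower). RSAD2 was thus below its GH3 level in MMQ cells without CAB and above it with CAB, while CCL7 was above it throughout.

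BRC alone left both genes dim in MMQ cells, with log2 differences against the control of 0.41 for CCL7 and 0.20 for RSAD2. In that pair 0.12% of all probe sets were at least 2-fold higher and 0.141% lower. CAB and BRC are both ergot derivatives and dopamine agonists, and at 50 μM the MMQ CAB array was above the MMQ BRC array by a log2 difference of 2.18 for CCL7 and 3.4 for RSAD2, with 1.07% of all probe sets at least 2-fold higher and 1.89% lower. This pair contains the CAB array that chose the genes and is given with no test, and the time of the BRC treatment was not found. An equal dose is not an equal toxicity, as the study reported more death of MMQ cells with CAB than with BRC. Whether cell death bears on the differences between drugs or between lines was not tested.

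The 2 genes parted between the MMQ CAB and the MMQ CAB+BRC array, 1 array each. As the doses and the time of CAB+BRC were not found, it is not known to be the CAB treatment with BRC added. CCL7 was 2.14 times as bright in the MMQ CAB+BRC array as in the MMQ CAB array (437 against 205, log2 difference 1.09), where 0.59% of all probe sets were at least 2-fold higher and 0.131% lower. After quantile normalization this difference was 0.97 and with a pseudocount of 32 it was 0.99, just short of 2-fold. RSAD2 was at 0.676 of its CAB level (159 against 235, log2 difference -0.56), which is less than 2-fold. In that pair 6.91% of all probe sets were at least as far from 0. Against the MMQ control, CCL7 had the largest difference of all 28295 probe sets in the CAB+BRC array (log2 difference 3.7, place 1 or 2 under the alternatives) and RSAD2 the fifth largest (3.08), with 1.39% of all probe sets at least 2-fold higher and 1.13% lower. The MMQ control is an array of the pair that chose the genes, and that choice favours a low control value, so these places support nothing further. CCL7 exceeded the sum of both single-drug differences by 0.68, and RSAD2 fell short of it by a departure of -0.76. Over all probe sets this departure had a standard deviation of 0.302 in MMQ cells, and 3.22% and 2.04% of them were at least as far from 0. The departure contains both arrays that chose the genes, so it is given with no test.

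The BRC effect in MMQ cells in the 8-array fit, the mean over cells without and with CAB, was 0.75 for CCL7 and -0.18 for RSAD2. It contains both arrays that chose the genes, and its spread contains the departure just given, so it stands as a value with no interval and no p. Without the MMQ control or the MMQ BRC array the CCL7 effect was 1.09, and without the MMQ CAB or the MMQ CAB+BRC array 0.41, since the estimate is then the pair with or without CAB alone. For RSAD2 these values were -0.56 and 0.20, of opposite sign. The BRC effect in MMQ minus that in GH3 cells was 0.86 for CCL7 and -0.32 for RSAD2, with no test for the same reason. With 1 array left out at a time it lay between 0.52 and 1.21 for CCL7, the ends without the MMQ CAB or CAB+BRC array and without the MMQ control or BRC array. For RSAD2 the same arrays moved it to 0.058 and -0.71, so its sign turned.

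To see how many probe sets behaved like these genes, those with both MMQ arrays with CAB at least 2-fold above each of the other 6 arrays were counted. There were 71 of 28295 (0.251%), both genes among them by a rule that includes the pair that chose them. The smaller of the CAB levels lay above the highest other array by a log2 difference of 2.18 for CCL7 and 1.98 for RSAD2, in places 5 and 6 of all probe sets. Of the 71 probe sets, 20 were higher with CAB+BRC than with CAB, with a median log2 difference of -0.14. CCL7 was the only one at least 2-fold higher (none was after quantile normalization), and it ranked first also within the differing sets of probe sets that the other thresholds, pseudocount and scaling gave, while RSAD2 was the 11th lowest. In 10 of the 71, CCL7 and RSAD2 included, all 6 other arrays were below their medians.

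**Figure D4:**
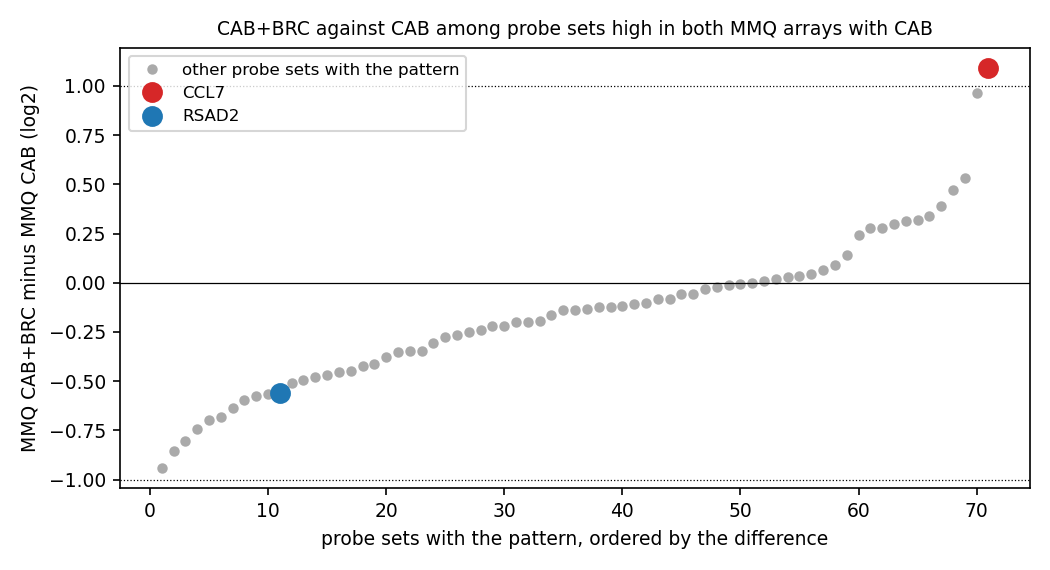
Log2 difference between the MMQ CAB+BRC and MMQ CAB arrays (vertical) for the 71 probe sets with both MMQ arrays with CAB at least 2-fold above each of the other 6 arrays, ordered by that difference, with dotted lines at 2-fold. CCL7 (red) is the highest point at 1.09 and RSAD2 (blue) lies below 0 at -0.56.

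Over the 8 arrays the log2 levels of CCL7 and RSAD2 had a Pearson correlation of 0.82, which 1737 of the 28295 probe sets matched or exceeded with CCL7 (RSAD2 included) and 312 with RSAD2 (CCL7 included). The rank correlation was 0.36, and the 2 genes ranked the lines oppositely in the control and BRC arrays. Without the MMQ control and MMQ CAB arrays Pearson's correlation was 0.85 over 6 arrays and the rank correlation 0.31. Of these 6, MMQ CAB+BRC alone is high for both genes, so Pearson's value rests largely on 1 array. These arrays share lines and drugs, and no p is given.

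Among the 18 other identified genes, those most like CCL7 were MVD, a decarboxylase used in making cholesterol (Pearson 0.93), GPNMB, a transmembrane glycoprotein (0.93), and ACSS2, an acetyl-CoA synthetase (0.79), all over 8 arrays. Over the 4 GH3 arrays alone the values were -0.072 for MVD, -0.15 for GPNMB and 0.66 for ACSS2. The rank correlation of ACSS2 with CCL7 over the 8 arrays was 0.36. The gene least like CCL7 was the immediate early transcription factor EGR1 (-0.90), which was at 42.4 with CAB and 49.3 with CAB+BRC in MMQ cells against 256 in the MMQ control. EGR1 was at 521 with BRC in MMQ cells, where CCL7 was not lower than in the control. In GH3 cells it ran from 413 in the control to 2390 with CAB+BRC, and its correlation with CCL7 over these 4 arrays was -0.28. Those most like RSAD2 were ACSS2 (0.98), the galectin LGALS3 (0.89) and the autophagy receptor SQSTM1 (0.89), and the least like was ASPM, a protein of the mitotic spindle (-0.97). Within the 4 GH3 arrays their correlations with RSAD2 were 0.39 for ACSS2, 0.63 for LGALS3, 0.50 for SQSTM1 and -0.74 for ASPM. ACSS2 went from 1331 with CAB to 881 with CAB+BRC in MMQ cells, lower with both drugs as RSAD2 was. MVD (1698 to 939), SQSTM1 (2433 to 1498), LGALS3 (1020.5 to 865) and GPNMB (2267 to 2237) were lower too. ASPM (116 to 156) and EGR1 were higher, as CCL7 was. All of these genes except EGR1 were themselves listed by the study for the same pair of MMQ arrays, which leaves the likeness in MMQ cells partly fixed by that choice. Of the 18 genes, 4 (GPNMB, MVD, ACSS2 and LGALS3) shared the pattern of both MMQ arrays with CAB at least 2-fold above each of the other 6.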

How the data were processed

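RNA of GH3 and MMQ cells in 8 conditions was hybridized to Affymetrix GeneChip rat genome arrays, 1 array per condition, and conditions were assigned from the labels. The authors used the GeneChip Command Console software and deposited 1 intensity per probe set and array. The summarization and normalization were not given in the sources used here. A difference between arrays can therefore include scaling. Precision is limited by the 8 arrays.

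CCL7 and RSAD2 were located by the fold of the study's gene list (relative tolerance 1e-06), as were 21 of 22 list entries used (20 genes), 0 of which carried their own name in the table. Single results of a few listed genes are not reported here. The members, lists and tests were chosen with earlier results of these data known. The genes named for likeness were, for each member, the 3 highest and the 1 lowest in Pearson correlation over 8 arrays. As the names did not go with the values, no pathway list or cell type marker was computed.

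Values were put on the log2(intensity + 1) scale in Python 3.11.15, with no filter or rescaling, and differences of 2-fold or more were counted for each pair of arrays. Effects were fitted with limma 3.58.1 in R 4.3.3 (lmFit, eBayes, two-sided, Benjamini-Hochberg over 28295 probe sets, threshold 0.05). The spread behind the p-values is that of departures from additivity, not of replicates. The BRC effects in MMQ cells were to be tested too, but no p is given because both the effects and their spread contain the arrays that chose the genes. The fits were also run on data simulated from the same additive model. Such data cannot check additivity, or whether MMQ cells vary like GH3 cells. Alternatives were other pseudocounts (0, 16, 32), centring on array medians, quantile normalization, filters on dim probe sets, a prior spread that follows the mean level, other fold thresholds (1.5 and 3) and fits with an array left out. The tests of MMQ minus GH3 and the count of probe sets high in both MMQ arrays with CAB were added after seeing the data.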

Additional observations from a re-analysis of the deposited data

How the results depend on the processing

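For the CAB effect with BRC present in MMQ cells, both genes passed with a prior spread that follows the mean level and when probe sets below the array median in all 6 arrays were left out, with unchanged log2 effects of 3.27 for CCL7 and 2.87 for RSAD2. The second of these supports nothing, since both genes lie above the array median in 1 of the 6 arrays, MMQ CAB+BRC, where they are high. They did not pass with pseudocounts of 16 or 32, quantile normalization or centring. A filter on the mean over 8 arrays removed both genes. Fitted to all 8 arrays, which include the pair that chose the genes and so give no test, the effect was 2.93 for CCL7 and 3.25 for RSAD2. Over all probe sets 0 passed, against 38 higher and 17 lower with the prior spread by mean level, 50 and 64 with the filter on each array's median (16273 probe sets tested) and 42 and 64 with the filter on the mean (14147 tested). The other settings gave 0 as well. Leaving out arrays raised other counts from 0: for CAB in GH3 cells to 590 higher and 545 lower without the GH3 BRC or the GH3 CAB+BRC array and for BRC in GH3 cells to 299 and 279 without either GH3 array with CAB. For CAB in MMQ minus GH3 cells the 2 filters gave at most 2 higher and 1 lower. Probe sets higher with MMQ CAB+BRC than with MMQ BRC numbered 246 at 2-fold, 163 with a pseudocount of 16, 1004 at 1.5-fold and 70 at 3-fold. For the drug effects in GH3 cells, 0 of 13 alternatives passed for either gene. These effects changed with the array left out. In GH3 cells the CAB effect ranged from -0.40 to 0.17 for CCL7 and from -0.35 to 0.18 for RSAD2 over the alternatives, and the BRC effect from -0.40 to 0.17 and from -0.12 to 0.41. A line without one of its arrays has no residual of its own and takes the spread of the other line. The fit of 6 arrays has no residual degree of freedom left without a GH3 array, so none was left out there. Another pseudocount cannot change the sign of a difference. Under quantile normalization and centring all 14 member differences of at least 2-fold kept their sign. These 14 include pairs with the arrays that chose the genes. Under the 5 alternatives 66 of 70 values stayed at 2-fold or more. The others were CCL7 between MMQ CAB+BRC and MMQ CAB (0.99 with a pseudocount of 32 and 0.97 after quantile normalization) and between the BRC arrays of the 2 lines (0.79 and 0.59 with pseudocounts of 16 and 32, against 1.19). The correlation of CCL7 with MVD (-0.072) and GPNMB (-0.15) changed sign within the GH3 arrays. The number of probe sets with both MMQ arrays with CAB above the other 6 was 71 at 2-fold, 209 at 1.5-fold and 20 at 3-fold, with both genes included each time. No paired analysis was possible because each condition has 1 array. Both genes are dim in 6 arrays, where small changes of the background alter the log2 values most.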
